A study of Mus musculus with 6 samples.

Results

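The Sox genes encode transcription factors that bind DNA through a shared high mobility group box. Members were the 10 genes Sox2, Sox4, Sox5, Sox6, Sox8, Sox9, Sox10, Sox11, Sox13 and Sox18, found as all probes that the platform annotation assigns to one of these symbols, out of 19057 genes named there. They had 26 probes of the 45281 on the array. Of these, 17 were among the 18420 brightest probes, which were the probes tested, and 9 were left out by that brightness filter.

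The mutant group was 3 arrays of sciatic nerve from P0-Cre Dicer mice, with Dicer labelled "F or N", a term the sources used here do not explain. The control group was 3 arrays of sciatic nerve from control littermates, whose alleles the labels do not give. By their labels, all 6 samples were total RNA from nerves of mice of both sexes at postnatal day 14. The authors' account of the design instead mentions cells grown in culture. That conflict could not be settled here, and the labels were followed, so every reading of nerve tissue below rests on them. The P0 promoter, which drives Cre, belongs to the gene of the main myelin protein of peripheral nerve and is active in the Schwann cell lineage. The number of animals behind each array is not stated, and p-values reflect the spread among these arrays alone, part of which may be technical. Dicer cuts microRNA precursors, and the array measured neither microRNAs nor proteins.

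Background on the family helps to read the values. Sox10 is required at every stage of the Schwann cell lineage and acts at myelin genes together with Egr2. Sox2 belongs to immature Schwann cells and opposes myelination, and prolonged Sox4 delays it in mice. Sox5 and Sox6 lack an activation domain of their own and can oppose Sox10 in other glial and neural crest cells, while Sox18 acts in blood and lymphatic vessels.

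Values are the authors' normalized signals in log2-like units. Whether they are plain log2 or a variance-stabilised form could not be settled, so differences, always mutant minus control, are not turned into folds. The columns run from 7.96 to 15.91 with a median of 8.24, so probes a little above the median lie at the dim end. Dicer1, the targeted gene, had 9.28, 9.10 and 9.13 in mutants, against 9.29, 9.17 and 9.13 in controls on its brightest probe, and the groups overlapped. A dimmer probe had 8.38, 8.45 and 8.34 in mutants, against 8.65, 8.63 and 8.50 in controls, and fell by 0.20 (limma adjusted p = 0.0458), a call lost with all probes tested (0.0558). The labels do not place these probes inside or outside the deleted stretch, so Dicer1 does not check the genotypes. Arrays correlated at 0.973 to 0.993 among mutants, 0.992 to 0.995 among controls and 0.912 to 0.942 between the groups. The second principal component, with 11.7% of the variance, put mutant replicate 1 at a distance from mutant replicates 2 and 3. Schwann lineage markers were present on all arrays, led by Sox10 itself. In bulk RNA, fewer cells of a type and less RNA per cell cannot be told apart. Probes were called with limma at a Benjamini-Hochberg adjusted p under 0.05.

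Among the Sox genes, Sox2, Sox4, Sox5 and Sox11 were called higher in the mutant nerves and no member was called lower. Sox2, Sox4 and Sox5 rose by between 0.77 and 0.86 on their brightest probes, and Sox11 by 0.25. The other 6 genes, Sox6, Sox8, Sox9, Sox10, Sox13 and Sox18, were not called. By gene, 4 of the 10 were called higher and 0 lower, against 22% and 17.6% of all genes tested. The members were chosen with earlier results of these data known, so these shares are no independent support. By probe, 7 of 17 tested probes were called higher (41.2%), against 19.9% of all tested probes. These 7 probes belong to 4 genes, with 3 for Sox5, 2 for Sox2 and 1 each for Sox4 and Sox11. limma called 0 of the 17 lower, and 0 were lower at an unadjusted p under 0.05, against 15.9% of all tested probes called lower and 35.8% called in either direction. No member probe was called with a difference of at least 1, against 2.05% of all tested probes higher and 2.44% lower by that much, 4.5% in all. The median difference of the 17 probes was 0.21, against 0.01 over all tested probes. On 8 of the 17 all mutant arrays lay above all control arrays (28.3% of all tested probes), and on 0 they lay below (23.8%), where 52.1% of all tested probes had groups apart in one direction or the other. The filter bears on these counts, since 3 of the 17 probes, the brightest of Sox6 and of Sox11 and the dimmer of Sox2, had control means below the dimmest mean it kept. With all 45281 probes tested, 8 of the 26 member probes were called higher (30.8%) and 0 lower, against 7.95% and 6.15% of all probes.

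**Figure D1:**
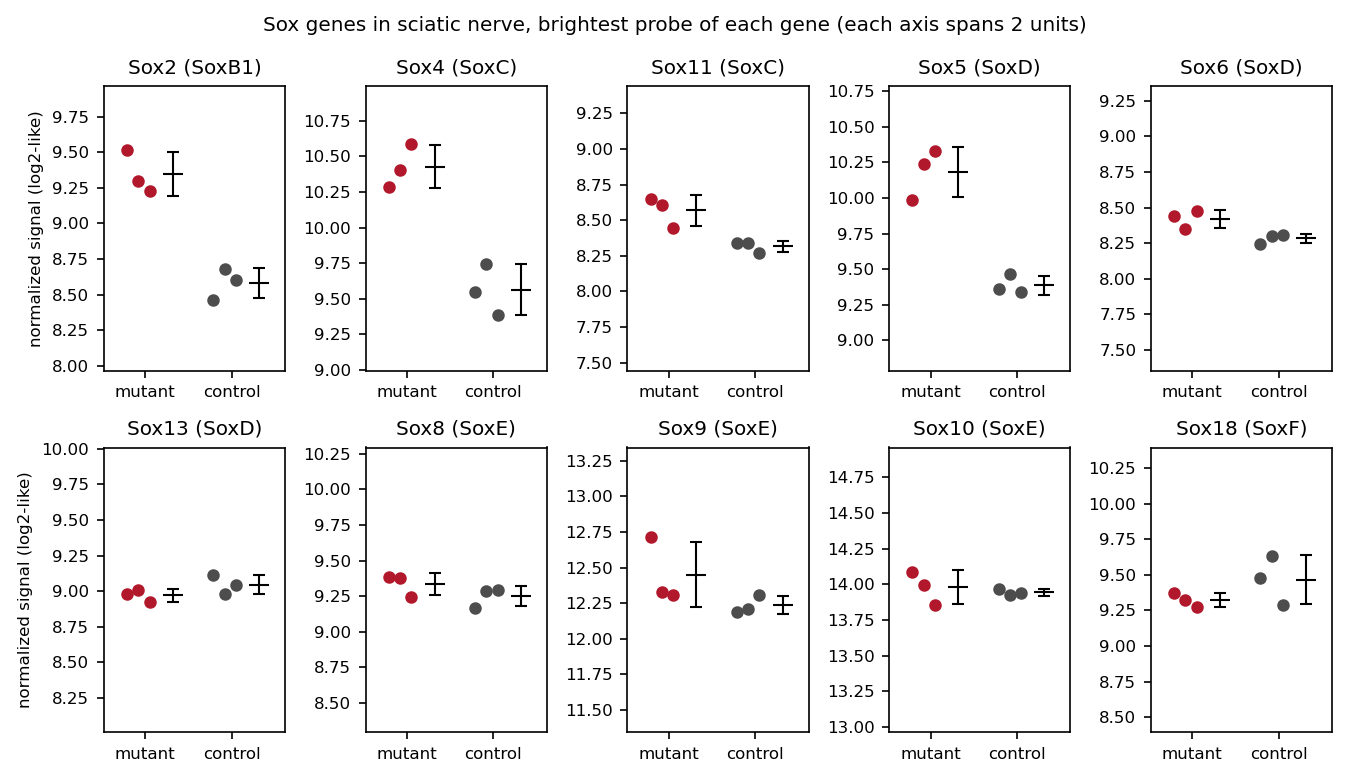
Normalized signal (log2-like units) of the brightest probe of each of the 10 Sox genes in the 3 mutant arrays (red) and the 3 control arrays (grey). Bars give the mean and SD of each group, and every vertical axis spans 2 units. Mutant and control points stand clear of each other for Sox2, Sox4, Sox5, Sox11 and Sox6, and overlap for the other 5 genes.

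Sox2, the SoxB1 factor of immature Schwann cells, was read by a pair of probes, and both rose. The brighter (ILMN_2656102) had 9.52, 9.30 and 9.23 in the mutant arrays, against 8.47, 8.68 and 8.60 in the control arrays. Every mutant array was above every control array, and mutant replicate 1 was the highest. Means of 9.35 ± 0.152 in mutants and 8.58 ± 0.107 in controls (SD, n = 3 each) lay 0.77 apart, with SE 0.095 and a limma adjusted p of 0.00121. The dimmer probe (ILMN_1248711) had 8.81, 8.91 and 8.94 in mutants, against 8.30, 8.29 and 8.36 in controls, the last 3 close to the median of the whole array. It rose by 0.57 (SE 0.056, limma adjusted p = 4.58e-04), and here mutant replicate 1 was the lowest of the mutants. This probe passed the filter through its mutant values, and with all probes tested its limma adjusted p was 6.46e-04. Leaving out any single array kept both probes called, with differences of 0.68 to 0.83 for the brighter and 0.54 to 0.61 for the dimmer.

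Sox4 and Sox11, the SoxC factors of immature and progenitor cells, both had a probe that rose. The brighter Sox4 probe (ILMN_2727116) had 10.28, 10.41 and 10.58 in mutants, against 9.55, 9.75 and 9.39 in controls, and the groups did not overlap. Its means were 10.43 ± 0.151 in mutants and 9.56 ± 0.179 in controls (SD, n = 3 each), a difference of 0.86 with a 95% interval of 0.59 to 1.14 (limma adjusted p = 0.00159). The dimmer Sox4 probe stayed between 8.35 and 8.47 on all 6 arrays and was not called (0.07, 95% interval -0.06 to 0.20). Both probes are annotated to the same transcript, and they disagree.

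Sox11 was close to the dim end on all of its 4 probes. Its brightest probe (ILMN_1235647) had 8.65, 8.61 and 8.45 in mutants, against 8.34, 8.34 and 8.27 in controls. The groups did not overlap, and the difference was 0.25 (SE 0.067, limma adjusted p = 0.027). Its control mean of 8.32 lay below the lowest mean kept, 8.34, so this probe passed the filter through its mutant values. With all probes tested its limma adjusted p was 0.0393. Sox11 was no longer called once mutant replicate 2 (adjusted p = 0.0852) was left out, nor without control replicate 1 (0.0742), 2 (0.0709) or 3 (0.0894), with differences of 0.23 to 0.26. On the other 3 Sox11 probes, left out by the filter, the mutant arrays were also all above the control arrays, by 0.08, 0.04 and 0.02, and none was called with all probes tested.

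Sox12, the remaining SoxC gene and no member of the 10, went the other way. Its brightest probe had 10.44, 10.28 and 10.25 in mutants, against 10.74, 10.63 and 10.69 in controls. It fell by 0.36, with SE 0.069 and a limma adjusted p of 0.00716. A second probe had 8.69, 8.76 and 8.71 in mutants, against 9.22, 9.20 and 9.10 in controls, and fell by 0.46 (limma adjusted p = 0.0012). The groups did not overlap on either probe, and both calls held without any single array. The other pair of Sox12 probes lay at 8.05 to 8.42, below the filter, and was not called with all probes tested.

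The promoters of the SoxB1 and SoxC genes that were called are shown because Sox2, Sox4 and Sox11 rose while Sox12 fell. Each is the 250 bases before the start site, 5′ to 3′ on the gene's strand, from RefSeq on GRCm38.p6. Capitals mark the motifs searched on both strands, namely the Sox core ACAAAG, its variant ACAATG, the CCAAT box, the GC box GGGCGG, the TATA element TATAAA and the E-box CACGTG, and adjoining or overlapping matches run together.
Sox2, chr3:34649745-34649994, plus strand: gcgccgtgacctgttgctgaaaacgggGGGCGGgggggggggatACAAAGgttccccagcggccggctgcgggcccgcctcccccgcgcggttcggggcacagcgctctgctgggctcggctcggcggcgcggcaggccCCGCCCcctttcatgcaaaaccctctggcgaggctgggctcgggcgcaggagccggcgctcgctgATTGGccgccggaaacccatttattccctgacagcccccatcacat
Sox4, chr13:28953700-28953949, minus strand: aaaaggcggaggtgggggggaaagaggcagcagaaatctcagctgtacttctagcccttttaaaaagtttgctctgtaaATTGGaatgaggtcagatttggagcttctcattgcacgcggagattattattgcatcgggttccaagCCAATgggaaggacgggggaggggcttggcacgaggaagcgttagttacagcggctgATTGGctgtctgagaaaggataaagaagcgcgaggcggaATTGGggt
Sox11, chr12:27342719-27342968, minus strand: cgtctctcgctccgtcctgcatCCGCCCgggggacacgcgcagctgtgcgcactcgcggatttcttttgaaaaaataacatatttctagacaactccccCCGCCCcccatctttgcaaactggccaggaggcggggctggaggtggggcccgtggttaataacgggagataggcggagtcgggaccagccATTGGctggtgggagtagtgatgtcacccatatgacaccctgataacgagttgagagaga
Sox12, chr2:152398047-152398296, minus strand: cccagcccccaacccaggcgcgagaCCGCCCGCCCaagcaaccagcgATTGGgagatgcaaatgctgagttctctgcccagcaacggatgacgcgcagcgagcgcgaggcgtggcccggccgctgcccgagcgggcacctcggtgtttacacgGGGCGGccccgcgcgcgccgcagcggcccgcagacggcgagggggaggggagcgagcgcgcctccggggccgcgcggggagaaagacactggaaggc
The Sox2 window holds 1 ACAAAG, 1 CCAAT and 2 GC boxes. The Sox4 window holds 4 matches to CCAAT and no GC box, the Sox11 window 1 CCAAT and 2 GC boxes, and the Sox12 window 1 CCAAT and 3 GC boxes. GC content was 72% for Sox2, 50.8% for Sox4, 58% for Sox11 and 74.4% for Sox12, against a median of 52.4% over 32851 windows. Of all windows, 33.8% hold CCAAT, 32.7% the GC box and 25.2% either Sox core. Those shares are the background for a description of letters, and no match here was tested as a binding site.

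In the SoxD group, Sox5 rose, while Sox6 and Sox13 were not called. Sox5 had 6 probes, of which 4 were tested and 3 were called higher. The brightest (ILMN_2448591), which has no transcript accession in the annotation, had 9.99, 10.24 and 10.33 in mutants, against 9.36, 9.47 and 9.34 in controls. Its difference was 0.80 (SE 0.096, limma adjusted p = 0.00108). The next (ILMN_2631143) had 10.06, 10.03 and 10.16 in mutants, against 9.21, 9.24 and 9.12 in controls, and its difference of 0.90 (SE 0.060, limma adjusted p = 9.13e-05) was the largest of the 26 member probes. On both, every mutant array lay well above every control array.

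The third Sox5 probe (ILMN_1244213) had 8.69, 8.72 and 8.76 in mutants, against 8.32, 8.40 and 8.35 in controls, and rose by 0.37 (SE 0.050, limma adjusted p = 0.00185). The fourth differed by 0.05 (95% interval -0.08 to 0.19) and was not called. Of the 2 probes left out by the filter, at 8.10 to 8.38, 1 was called with all probes tested, at 0.10 (limma adjusted p = 0.0254). With the replicate block its adjusted p was 0.0637, and without any array other than mutant replicate 1 it was not called either. The 3 calls among tested probes held without any single array. One Sox5 promoter window was found, and it is shown because it is the SoxD window of a gene that rose. Marks are as above.
Sox5, chr6:143947107-143947356, minus strand: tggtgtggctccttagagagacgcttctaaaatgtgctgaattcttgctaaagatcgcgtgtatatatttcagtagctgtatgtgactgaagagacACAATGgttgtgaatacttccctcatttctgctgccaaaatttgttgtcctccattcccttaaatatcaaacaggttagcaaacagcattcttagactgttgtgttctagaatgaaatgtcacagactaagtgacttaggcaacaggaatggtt
It has a GC content of 39.6% and holds 1 ACAATG, a core present in 10.7% of all windows, with no CCAAT or GC box.

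Sox6, which acts beside Sox5 in cartilage and beside muscle regulators in fibre type, was dim throughout. Its brightest probe had 8.44, 8.35 and 8.47 in mutants, against 8.25, 8.30 and 8.31 in controls. All mutant arrays were above all control arrays, but the difference of 0.14 (SE 0.055) was not called (limma adjusted p = 0.0935). An intensity trend in the prior brought it under the threshold (adjusted p = 0.0274). The other 4 Sox6 probes lay at 8.05 to 8.21, below the filter, with none called. Sox13, the third SoxD gene, had 8.98, 9.01 and 8.92 in mutants, against 9.11, 8.98 and 9.05 in controls, and the groups overlapped. Its difference was -0.08 with a 95% interval of -0.21 to 0.06 (limma adjusted p = 0.35).

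**Figure D2:**
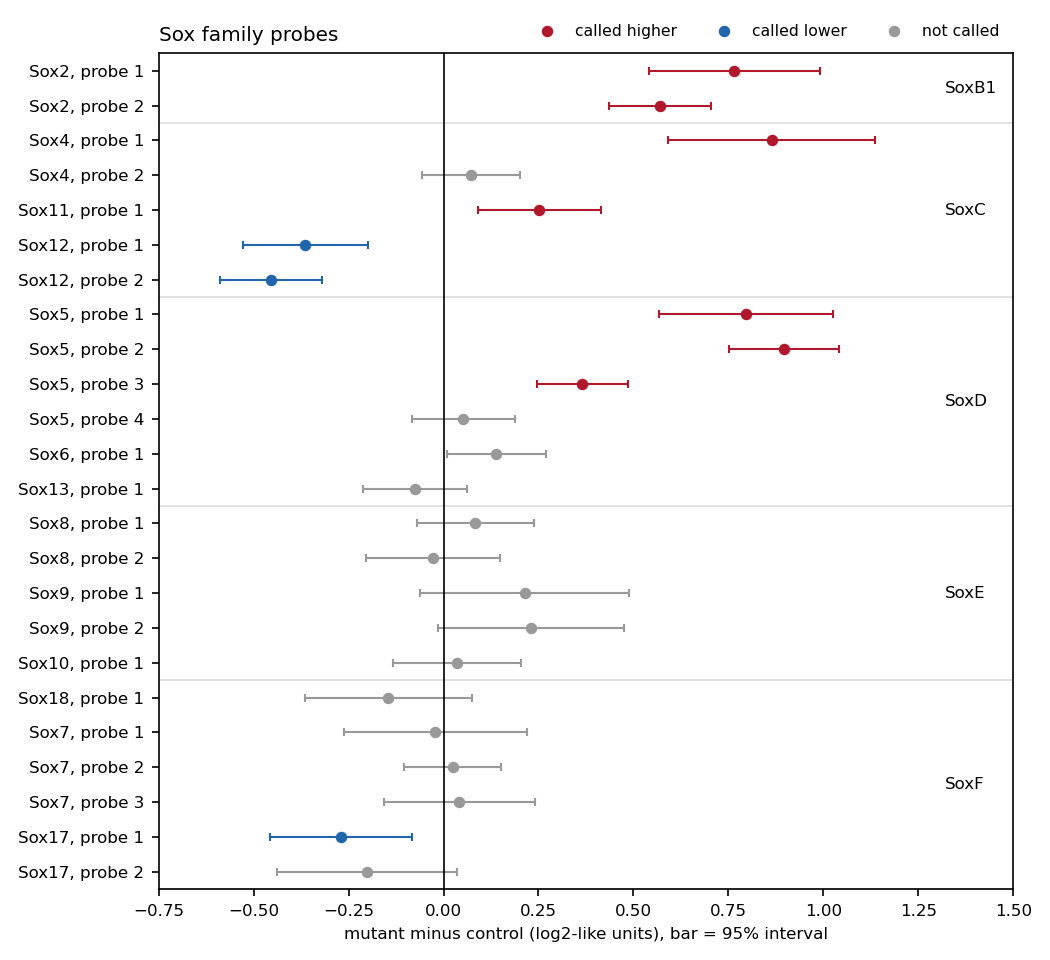
Difference of mutant from control (log2-like units) with its 95% interval from limma for each Sox family probe that was tested, ordered by Sox group and, within a gene, by brightness. Red points were called higher, blue points lower and grey points were not called. The points farthest right, at 0.57 to 0.90, belong to Sox2, Sox4 and Sox5, and the called points left of 0 belong to Sox12 and Sox17.

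No gene of the SoxE group, the factors of neural crest and glia, was called. Sox10 had 14.09, 14.00 and 13.85 in mutants, against 13.97, 13.92 and 13.94 in controls, and the control arrays all lay within the range of the mutant arrays. The difference was 0.04 with a 95% interval of -0.13 to 0.20 (limma adjusted p = 0.734). Without mutant replicate 1 it was -0.02 (adjusted p = 0.837).

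Sox9, which acts in early neural crest, fibroblasts and cartilage, had a bright probe with 12.71, 12.33 and 12.31 in mutants, against 12.19, 12.21 and 12.31 in controls. Mutant replicate 1 stood above the other 5 arrays, and mutant replicate 3 lay level with control replicate 3. The difference was 0.21 with a 95% interval of -0.06 to 0.49 (limma adjusted p = 0.196), and without mutant replicate 1 it was 0.08 (adjusted p = 0.32). The dimmer Sox9 probe had 9.69, 9.66 and 9.34 in mutants, against 9.33, 9.28 and 9.39 in controls, so mutant replicate 3 fell among the controls. It was not called (0.23, limma adjusted p = 0.129). Without mutant replicate 3 this probe was called higher, by 0.34 (adjusted p = 0.0101), and with array weights by 0.30 (adjusted p = 0.00991).

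Sox8, a relative of Sox10 that overlaps with it in glia, had 9.38, 9.38 and 9.25 in mutants, against 9.17, 9.29 and 9.30 in controls, on its brighter probe. Mutant replicate 3 again lay among the controls, and the difference was 0.08 (95% interval -0.07 to 0.24). The dimmer probe differed by -0.03 (95% interval -0.21 to 0.15). The intervals of Sox8 and Sox10 exclude a difference as large as those of the brightest Sox2, Sox4 and Sox5 probes, while whether any pair of genes differed from each other was not tested.

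Sox18, the SoxF member, had 9.37, 9.32 and 9.27 in mutants, against 9.47, 9.63 and 9.29 in controls. Control replicate 3 lay among the mutant arrays, and the difference of -0.14 had a 95% interval of -0.36 to 0.07 (limma adjusted p = 0.266). Sox17, another SoxF gene of vessels, had 9.48, 9.25 and 9.40 in mutants, against 9.58, 9.74 and 9.63 in controls on its brighter probe. It fell by 0.27 (SE 0.078, limma adjusted p = 0.0355), but the replicate block (adjusted p = 0.0786) and the test of all probes (0.0644) each ended the call. So did leaving out mutant replicate 2 (0.0939) or 3 (0.0653), or control replicate 1 (0.0614), 2 (0.116) or 3 (0.0877). The dimmer Sox17 probe (-0.20) and the 3 probes of Sox7 (-0.02, 0.02 and 0.04) were not called.

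Of the 3 genes outside the 10 members that were tested, Sox12 and Sox17 were thus called lower and Sox7 was not called. The Sox12 calls held without any single array, while the Sox17 call did not. Over all genes tested, 17.6% were called lower and 22% higher.

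Markers of endothelial cells stood beside the SoxF values. Of 17 tested, limma called 5 lower and 0 higher (5 and 0 at an unadjusted p under 0.05), with a median of -0.19, against 17.6% lower, 22% higher and a median of 0.01 over all genes tested. The tight junction gene Cldn5 fell by 0.88, Egfl7 by 0.78, the clotting factor gene Vwf by 0.55 and the receptor gene Flt1 by 0.39. Sox17 is among the 5, and Sox7, not called, is also among the 17. The list is therefore not independent of the SoxF values. Their mean signal ran from 10.19 to 10.30 over the mutant arrays and from 10.28 to 10.58 over the control arrays. Cdh5 and Tie1, which define the cell type, differed by -0.06 and 0.0027, Pecam1 and Plvap by 0.25 and 0.30 without a call, and Kdr and Erg lay below the filter. With the replicate block 2 were called higher. With array weights 8 were lower, Emcn (adjusted p = 0.0113), Esam (0.0358) and Robo4 (0.0189) being added, and 1, Plvap (0.0187), was higher. Only 2 were called lower without mutant replicate 2 or 3, without control replicate 1 or with all probes tested, and 3 without control replicate 2. Vwf and Flt1 missed the threshold without mutant replicate 2 (adjusted p = 0.0505 and 0.105), mutant replicate 3 (0.057 and 0.0975), control replicate 1 (0.0667 and 0.115) and with all probes tested (0.0599 and 0.0948), and Flt1 also without control replicate 2 (0.12). Of 4 lymphatic markers, 1, Pdpn, was called higher at 0.30, no longer called once control replicate 2 (adjusted p = 0.0714) or 3 (0.083) was left out or with an intensity trend in the prior (0.0653), and limma called 0 lower (0 at an unadjusted p under 0.05), or 1 with the replicate block. Without mutant replicate 1, Lyve1 was called lower (-0.38, adjusted p = 0.0389). Prox1, on which Sox18 acts, lay below the filter. The part of vessel markers in the SoxF values was not tested.

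**Figure D3:**
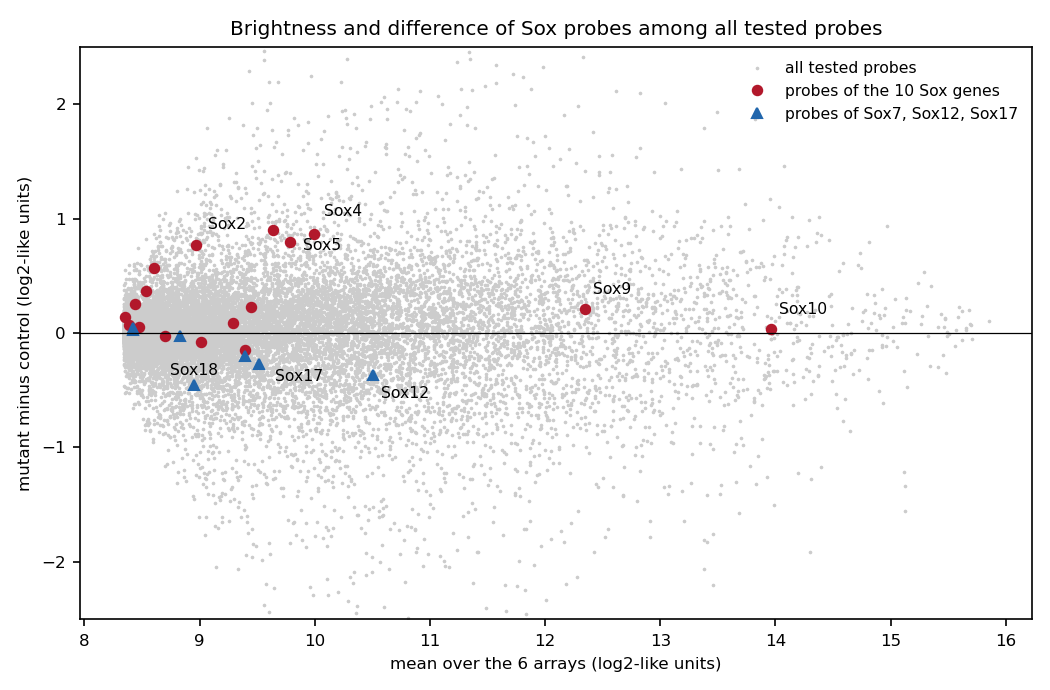
Mean over the 6 arrays against the difference of mutant from control, both in log2-like units, for all tested probes (grey), probes of the 10 Sox genes (red circles) and probes of Sox7, Sox12 and Sox17 (blue triangles). The vertical axis stops at 2.5, which leaves 69 grey probes outside. Most Sox probes lie in the dim range, with Sox9 and Sox10 the bright exceptions.

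The remaining Sox genes on the array were near the low end. Sox1, Sox3, Sox14, Sox15, Sox21, Sox30 and Sry had every probe below the filter. With all probes tested, Sox3, a SoxB1 relative of Sox2, had 8.34, 8.47 and 8.50 in mutants, against 8.09, 8.14 and 8.17 in controls on one probe, and rose by 0.30 (SE 0.046, limma adjusted p = 0.00968). Its other probe rose by 0.11 (limma adjusted p = 0.0491), which the replicate block (0.0538) and leaving out any 1 array (0.0586 to 0.161) took above the threshold. Sox21, a SoxB2 gene, had 8.43, 8.47 and 8.39 in mutants, against 8.21, 8.25 and 8.22 in controls, and rose by 0.20 (SE 0.027, limma adjusted p = 0.00628), while its 2 other probes did not differ by more than 0.02. For Sox3 and Sox21 the mutant arrays were all above the control arrays on the called probes, at levels around the array median of 8.24.

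Genes on which Sox10 acts in Schwann cells were more often called lower than higher. Of 18 tested, Sox10 itself among them, 9 fell, 2 rose and 7 were not called. The median was -0.26, and 17.6% of all genes tested were called lower and 22% higher. The myelin adhesion gene Mag had 11.13 ± 0.235 in mutants and 14.31 ± 0.180 in controls (SD, n = 3 each), a difference of -3.19. Egr2, the zinc finger factor that works with Sox10 at myelin genes, fell by 2.45 and the myelin enzyme gene Cnp fell by 1.34. The endothelin receptor gene Ednrb, by contrast, rose by 1.89. Promoter windows were available for 7 of the 9 genes that fell, and 3 of these held either Sox core. Of the 3 uncalled genes with a window 0 held one, nor did the 1 risen gene with a window. Either core lay in 25.2% of all windows. That share is over single windows, while a gene counted if any of its windows held a core, so the measures are unlike. Myelin genes such as Mag and Egr2 were already known from earlier results of these data to fall, so the list is no independent support.

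Of 15 tested partners and cofactors of Sox proteins, 4 rose and 2 fell, with a median of -0.04, against 22% higher and 17.6% lower among all genes tested. With array weights 5 were higher and 5 lower, the added ones being Ep300 higher (adjusted p = 0.0498) and Crebbp (0.0173), Zeb2 (0.016) and Ctbp2 (0.0373) lower. Besides Egr2, Hdac2, a deacetylase that Sox10 recruits, rose by 0.58, Nfatc3, from a family with members that act with Sox10, by 0.43, and the remodeller gene Smarca4 by 0.32. Smarca4 was not called once control replicate 1 (adjusted p = 0.0619), 2 (0.0738) or 3 (0.0548) was left out. Med12 rose as well, by 0.29, and Nab2 fell by 0.17, and the replicate block ended both calls (adjusted p = 0.0548 and 0.0719), which leaves 1 gene lower. Without mutant replicate 2 or 3, or any control array, Nab2 was not called either (0.0542 to 0.0928). Without control replicate 1 or 3, where Smarca4 and Med12 were both lost, 2 genes were called higher.

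Genes of the stages in which Sox2, Sox4 and Sox11 act were more often called higher than lower, where 22% of all genes tested were called higher and 17.6% lower. Of 11 genes of immature Schwann cells tested, Sox2 among them, 9 rose and limma called 0 lower (0 at an unadjusted p under 0.05), with a median of 1.39. The neurotrophin receptor gene Ngfr rose by 3.42 and the cyclin gene Ccnd1 by 1.87. Cdh2, the adhesion gene that Sox2 is known to act through in injured nerve, lay below the filter, as did Pax3. Of 9 progenitor genes linked to Sox4 and Sox11, 5 rose and 1 fell, with a median of 0.33. The RNA-binding protein gene Igf2bp3 rose by 1.63 and the growth cone gene Dpysl3 by 1.13, while the intermediate filament gene Nes fell by 0.91. Tubb3 and Dcx, which SoxC factors activate in neurons, lay below the filter. Both lists were chosen with earlier results of these data known, so they are no independent support.

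Cartilage genes, which Sox9 switches on with Sox5 and Sox6, moved in both directions. Of 8 tested, 3 rose, 1 fell and 4 were not called, against 22% higher and 17.6% lower among all genes tested, and 2 were lower with array weights. Their median difference was -0.01, while their mean signal ran from 9.31 to 9.54 over the mutant arrays and from 9.03 to 9.12 over the control arrays, with no overlap. The collagen gene Col9a3 had 10.70 ± 0.0531 in mutants and 8.51 ± 0.0553 in controls (SD, n = 3 each), a difference of 2.19 (limma adjusted p = 3.95e-06). Col2a1, the main cartilage collagen, rose by 1.26, with means of 9.71 in mutants and 8.46 in controls, the second at the dim end. Col9a2 rose by 0.70. The Col9a2 call was lost with all probes tested (adjusted p = 0.0619), without mutant replicate 2 (0.0588) and without control replicate 1 (0.074), 2 (0.0654) or 3 (0.0616). Matn4 fell by 1.17, and Acan and Matn1, which define chondrocytes, lay below the filter.

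**Figure D4:**
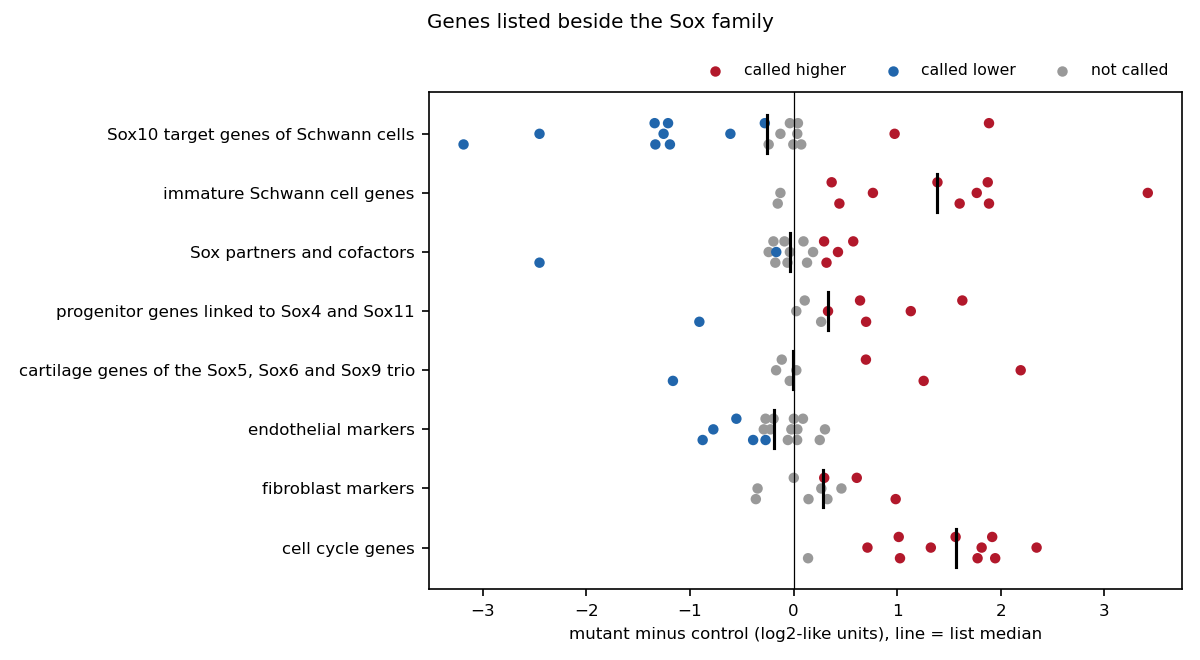
Difference of mutant from control (log2-like units) for each tested gene of 8 lists, 1 point per gene on its brightest probe. Red points were called higher, blue lower and grey were not called, and black lines mark list medians. The median line lies at 1.39 for immature Schwann cell genes and at -0.26 for genes on which Sox10 acts.

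Markers of other cells that use Sox genes were measured beside them, where 22% of all genes tested were called higher and 17.6% lower. Of 7 tested Schwann lineage markers, Sox10 among them, 3 rose and 1 fell, with a median of 0.11. Ngfr, also in the immature Schwann cell list, rose by 3.42, Cdh19 by 0.98 and Sostdc1 by 0.93, while S100b fell by 1.19. Sox10, Erbb3 and Gas7 differed by 0.04, 0.04 and 0.11 without a call. The mean signal of the 7 was 11.68 to 11.69 over mutant arrays and 11.00 to 11.14 over control arrays. Of 9 melanocyte markers, which Sox10 also serves, 3 were tested: Dct rose by 1.51, Pmel fell by 0.74 and Kit was not called, while Tyr, Mlana and Tyrp1 lay below the filter. With all probes tested 2 melanocyte markers were lower, and with a stricter filter of the brightest 12000 probes 0 were. Of 10 fibroblast markers 3 rose and limma called 0 lower (2 at an unadjusted p under 0.05), against 22% higher among all genes tested, led by Lum at 0.99. Dpt and Pi16 were called lower with array weights (adjusted p = 0.0033 and 0.0036) and without mutant replicate 1 (0.0147 and 0.0395), and Pi16 without control replicate 3 (0.021). Their mean signal was 12.97 to 13.21 over mutant arrays and 12.69 to 12.89 over control arrays. Of 11 cell cycle genes 10 rose, with a mean signal of 10.48 to 10.63 over mutant arrays and 9.14 to 9.15 over control arrays. The part of dividing cells or fibroblasts in the Sox values was not tested.

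Beside the counts of the other marker lists, 22% of all genes tested were called higher and 17.6% lower. Of 8 perineurial markers, limma called 2 higher and 0 lower (3 and 0 at an unadjusted p under 0.05). The count of 2 was 1 with all probes tested and when any array but mutant replicate 1 was left out. Slc2a1 was called lower without mutant replicate 1 (adjusted p = 0.0195), Lypd2 without mutant replicate 3 (0.0234) and Klf5 without control replicate 3 (0.0258), and array weights called Slc2a1 and Lypd2 lower. Of 10 macrophage markers 1 was higher and 1 lower, where the replicate block gave 2 higher, and array weights or leaving out mutant replicate 1 gave 3. Of 9 skeletal muscle markers, Sox6 among them, limma called 1 lower and 0 higher (4 and 1 at an unadjusted p under 0.05), while the replicate block gave 5 lower, leaving out mutant replicate 1 gave 4, array weights or the intensity trend gave 3, and the stricter filter gave 2. Their mean signal was 9.37 to 10.98 over mutant arrays and 11.11 to 12.27 over control arrays. Of 4 adipocyte markers limma called 1 lower and 0 higher (2 and 0 at an unadjusted p under 0.05), while array weights called all 4 lower, the replicate block gave 3 lower and leaving out mutant replicate 1 or control replicate 3 gave 2. The part of these cells in the Sox values was not tested.

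Sox4 had the largest rise among the called members when 1 probe stands for each gene. The genes most like it over the 6 arrays were Marcksl1, with a Pearson correlation of 0.999, then Dennd2a and 1700025G04Rik, with 0.995 each. These are the highest correlations with Sox4 among the 10273 genes tested, over 6 arrays that share the difference between the groups, and they are a description without a test. Marcksl1, a regulator of the actin cytoskeleton, rose by 0.33 and is also in the progenitor list above. A dimmer Marcksl1 probe differed by 0.17 and was not called (limma adjusted p = 0.0735).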

How the data were processed

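Total RNA of 6 samples labelled as sciatic nerve was read on Illumina mouse bead arrays. Per the labels (the design text), the authors preprocessed with limma and normalized by RMA, and the submitters' processing notes name lumi 1.8.3. The deposited values are log2-like. Background correction and detection calls were not used here.

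In place of the present calls in the design text, the 18420 brightest of 45281 probes, by mean signal on the 6 arrays, were tested (lowest kept mean 8.34). Of all probes, 34885 had 1 gene symbol, 18 several and 10378 none, and unnamed genes are not analysed here. Mutants were compared with controls in limma 3.58.1 (R 4.3.3, lmFit and eBayes, 2-sided, 4 residual degrees of freedom), with Benjamini-Hochberg adjustment over the kept probes. Gene lists use the brightest kept probe of each gene. The number of arrays limits the precision.

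The sample titles number the replicates within each group and do not state that equal numbers are pairs. Deviations from the group means correlated at 0.165, 0.155 and 0.224 between same-numbered mutant and control arrays. The main fit used the group alone, and the replicate block is given as an alternative. Promoters are RefSeq windows for 7 of the 10 members.

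Members and lists were chosen with earlier results of these data known. Named genes are all Sox genes, up to 4 called genes with the largest difference in each list, and the 3 genes most correlated with the called member that rose most. Med12, Nab2, Cdh5, Tie1, Pecam1, Plvap, Kit, Erbb3, Gas7 and Dicer1 fall outside that rule and were chosen after their values were seen. The same holds for genes called under an alternative alone and the genes named as below the filter.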

Additional observations from a re-analysis of the deposited data

How the results depend on the processing

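Sox2, Sox4 and Sox5 kept their direction and their calls under every alternative tried on the tested probes that were called, except that the stricter filter of 12000 probes left out the dimmer probe of Sox2 and the third of Sox5. With the replicate block 7 Sox probes were called higher, as without it, and the calls it changed among Sox probes are given beside their results. The stricter filter left 4 Sox probes called higher, since it removed dim probes, Sox11 among them. Leaving out 1 array gave 6 to 8 Sox probes higher and 0 lower. Over all tested probes it gave 2557 to 4044 higher, against 3664 with all arrays, and 2041 to 3458 lower, against 2932. Among list genes it gave 35 to 42 higher, against 40, and 17 to 31 lower, against 22. Array weights raised the probes called lower to 4483 and the list genes called lower to 38, and the cause was not tested.

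Of 347 differences of single Sox probes under an alternative, 310 kept direction and side of the threshold, 25 lost a call, 5 gained one and 7 changed sign. All 7 were uncalled before and after. Without single arrays the differences ran from -0.019 to 0.099 for Sox10, from -0.096 to 0.026 for the dimmer Sox8 probe, and for Sox7 from -0.13 to 0.037 on its brightest probe, from -0.0088 to 0.048 on the next and from -0.036 to 0.10 on the dimmest. Differences at the dim end are limited by the signal over background.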
